A study of Mus musculus with 18 samples.

Results

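The respiratory chain and ATP synthase were followed as a group of 73 nuclear genes among the 8251 genes that an Affymetrix MG-U74Av2 array read with a single gene symbol. A gene was a member when its symbol began with Nduf, Atp5, Uqcr or Cox4 to Cox8, or was Sdha, Sdhb, Sdhc, Sdhd, Cyc1 or Cycs, and the probe set with the highest mean signal stood for the gene. The members were 29 subunits of complex I, 2 complex I assembly factors, 4 subunits of complex II, 9 genes of complex III and cytochrome c, 15 subunits of complex IV and 14 of ATP synthase. The symbols chose the genes, but the group was chosen with earlier results of these data known, and mean signal chose the probe set.

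The arrays held RNA of the ER4 clone of the mouse line G1E. The line was made from embryonic stem cells in which Gata-1 had been disrupted, and the clone carries Gata-1-ER, a fusion of Gata-1 to the part of the estrogen receptor that binds estradiol. Estradiol was added to the medium and RNA was taken at 0, 3, 7, 14, 21 and 30 h, and each time had 3 biological replicates, called A, B and C, or 18 arrays in all. All 6 groups therefore share the Gata-1 disruption, the fusion gene and 1 clone. None of the 18 arrays came from treated cells without the fusion or from untreated cells kept to a later time, so the time in estradiol, Gata-1-ER activity and time in culture cannot be told apart.

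The respiratory chain carries electrons from NADH (complex I) and succinate (complex II) through quinone, complex III and cytochrome c to oxygen at complex IV, and ATP synthase uses the proton gradient that complexes I, III and IV build. Complexes I, III and IV mix core subunits, some of which hold the catalytic centres, with accessory subunits that stabilise the complex. Some complex IV subunits exist as forms used in most tissues and forms best known from muscle or testis. In red cell precursors the mitochondrion also makes heme and iron-sulfur clusters, and the organelle is removed as reticulocytes mature.

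Signals below are deposited values on a linear scale in arbitrary units. Each log2 change is the difference of means of log2(signal + 16) after quantile normalization, with the standard error (SE) of the limma model fitted to all 12422 probe sets, and a call means a Benjamini-Hochberg adjusted p below 0.05 over those probe sets. The constant of 16 makes the change of a dim gene smaller than the change of its signal. An exact permutation test of 3 arrays against 3 cannot give a p below 0.1, so the calls rest on the variance that limma shares between probe sets. Fewer cells that express a gene and less RNA per cell cannot be told apart in such bulk RNA.

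The identity of the cells was checked with marker lists. The summed signal of 8 measured erythroid markers lay between 57054 and 69074 at 30 h, against 10785 and 13260 at 0 h. The sums of the megakaryocyte, mast cell, neutrophil and macrophage, and lymphocyte markers stayed between 70.0 and 401 in every array, and that of the fibroblast markers between 465 and 1037. Of these other markers Cma1 (64.2 at 30 h and 9.73 at 0 h) and Ms4a1 (83.6 and 40.1) were called higher and Cpa3 (10.6 and 27.7) lower at 30 h, and of the erythroid ones 6 of 8 were higher. At 3 h the erythroid marker Epor was called lower (373 at 3 h and 584.5 at 0 h, log2 change −0.67) and Klf1 higher (0.47). Cma1, Ms4a1 and Cpa3 were called in the same directions at 21 h, when the fibroblast marker Dcn was lower too (3.90 at 21 h and 22.4 at 0 h). The megakaryocyte marker Gp9 was called higher at 14 h (118 at 14 h and 30.8 at 0 h, log2 change 1.46) and at 21 h (99.3, log2 change 1.34) and not at 30 h (25.1). The part of these changes in the members' changes was not tested. The arrays of one time correlated at a median r of 0.957 to 0.973, and no 2 arrays were identical.

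No member was called by limma at 3 h, when 1.06% of all probe sets were called, and 3 members had an unadjusted p below 0.05. At 7 h there were 2 calls, both higher, which is 2.74% of the members against 4.17% of all probe sets, of which 2.48% were higher. At 14 h 7 members were called higher and 6 lower (17.8% of the members against 13.3% of all probe sets, 6.55% higher and 6.77% lower). At 21 h 10 were higher and 14 were lower (32.9% against 20.7%, 9.75% higher and 10.9% lower). At 30 h 13 were higher and 23 lower, so that 49.3% of the members were called against 26.7% of all probe sets, of which 12.8% were higher and 13.8% lower. The F test over all times called 31 members (42.5% against 27.2%).

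The members as a group were bright, and a bright probe set is called more often. Among the 48 members with a mean signal of 500 or more, a limit chosen after the values were seen, 60.4% were called at 30 h, against 70.5% of the 1219 probe sets that reach the same limit. The same shares were 41.7% against 59.1% at 21 h, 22.9% against 44.3% at 14 h and 2.08% against 17.8% at 7 h. At 14, 21 and 30 h the share of all 73 members thus lay above that of all probe sets, and at 7 h below it (2.74% against 4.17%). The share of the 48 bright members lay below that of bright probe sets at each of these times. The share of calls is therefore no finding about the members. The difference from bright probe sets was not tested. The median log2 change of the 73 members was −0.03 at 30 h, against 0.05 over all probe sets.

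The 73 members did not move as one. Of the 37 called at any time against 0 h, 13 were higher at 30 h with changes between 0.37 and 2.82, 23 were lower with changes between −0.40 and −2.06, and Cox7b, a subunit of complex IV, was called only at 21 h (−0.55, SE 0.17, adjusted p = 0.0271). The other 36 members were not called at any time. Of those, Atp5j2, Cox5a, Cox6a2, Cox8a, Ndufa12, Ndufc2 and Ndufs4 had mean signals under 50 at every time, where the array separates groups poorly.

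**Figure D1:**
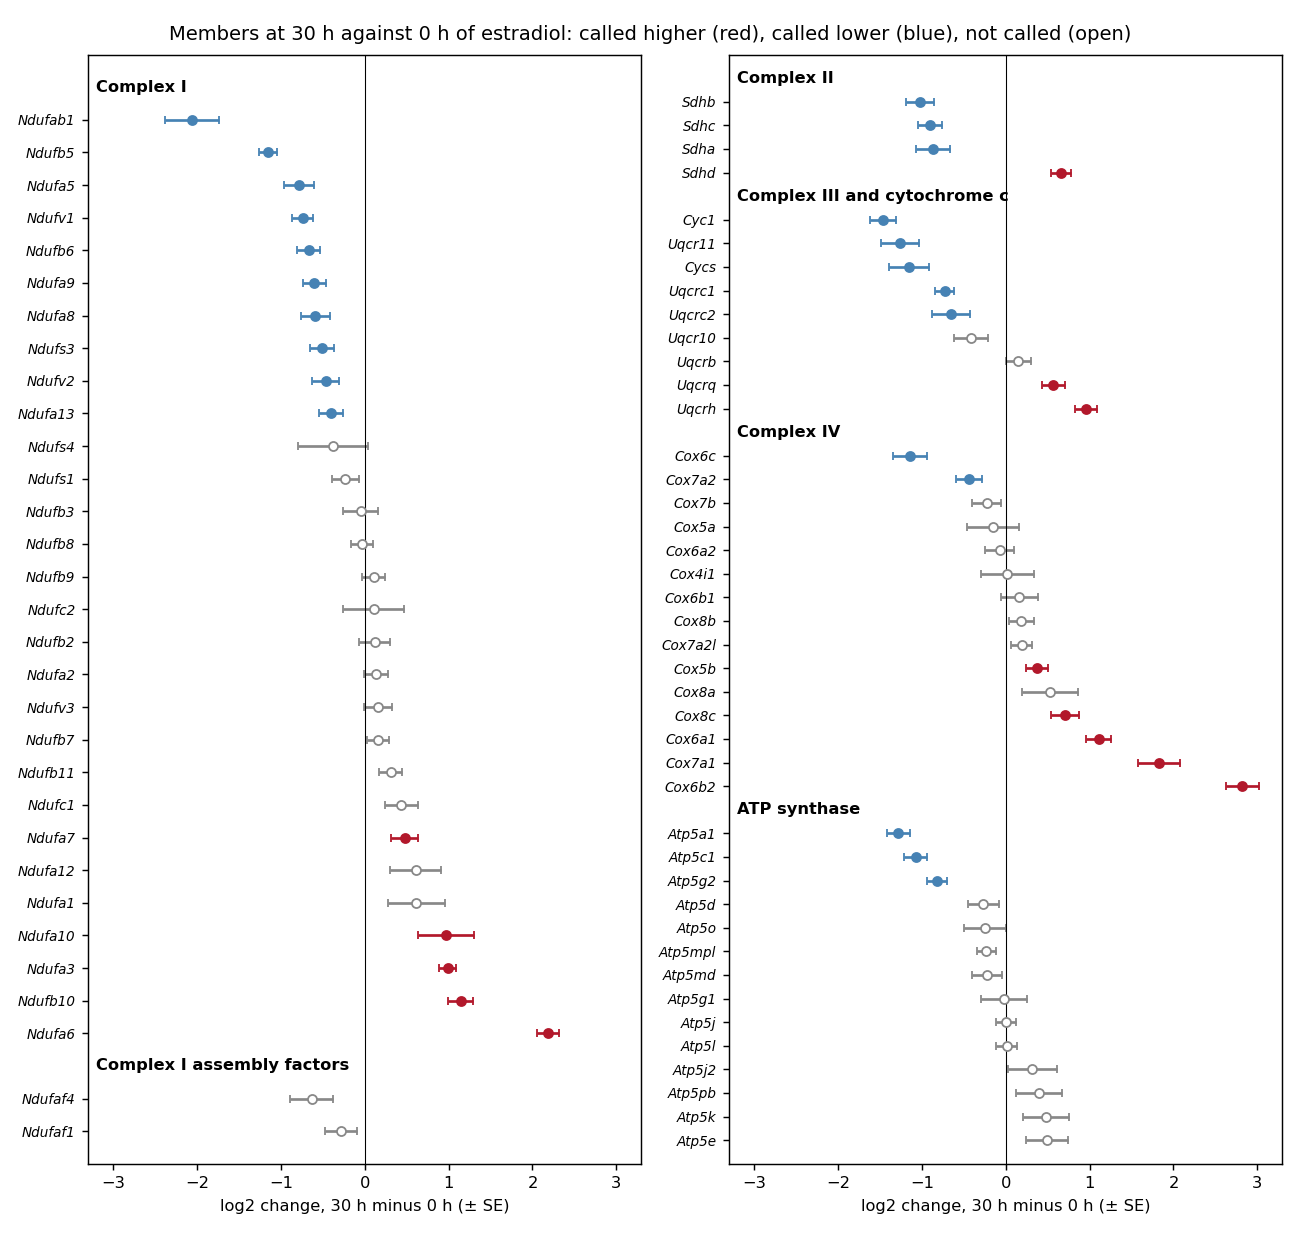
Log2 change at 30 h against 0 h for the 73 members, grouped by complex (points, bars are ± SE of the limma model, 3 arrays at each time). Red points are members called higher, blue points members called lower and open points members not called; complexes I, II, III and IV hold both red and blue points, and ATP synthase has no red one.

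The complexes differed in their counts. Complex I had 5 members higher and 10 lower of 29 at 30 h, with a median log2 change of 0.11. Complex II had 1 higher and 3 lower of 4 (median −0.88), and complex III with cytochrome c had 2 higher and 5 lower of 9 (median −0.65). Complex IV had 5 higher and 2 lower of 15 (median 0.19). ATP synthase had 0 higher and 3 lower of 14 (median −0.12), and neither of the 2 assembly factors was called. These are counts of named genes beside the 26.7% of all probe sets called at 30 h, and no difference between complexes was tested.

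**Figure D2:**
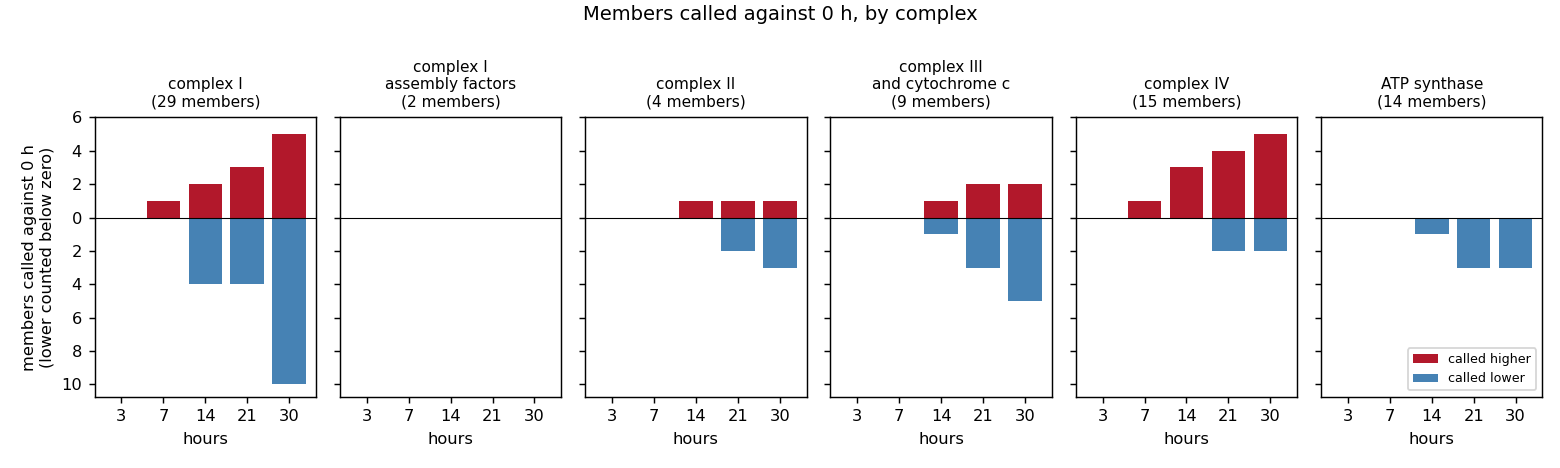
Number of members called against 0 h at 3, 7, 14, 21 and 30 h in each complex, higher above the line and lower below it. Calls were absent at 3 h, and complex I had the most at 30 h (5 higher and 10 lower of 29).

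Promoters of the members that moved most are shown because the members did not move together. Among the largest rises and falls, Cox6b2, Ndufa6, Cox7a1, Ndufab1, Uqcr11 and Cycs had a window in the RefSeq table of build GRCm38.p6. Cox6a1 and Atp5g2 are added as called members with the whole word of the nuclear respiratory factor NRF1 in the printed bases. Uqcrc1, called lower, held that word too, but not wholly within the 250 bases before its start. The 250 bases before the annotated start are printed 5′ to 3′ in the direction of the gene. Capitals mark the words searched on both strands: GCGC, AT and GCGC in one run for NRF1, CCGGAAG for ETS factors such as GABP, AAGATGGC for YY1, and AGATAA and TGATAA for GATA factors. The last pair end in the same bases but cannot lie on one stretch of a strand.
Cox6b2: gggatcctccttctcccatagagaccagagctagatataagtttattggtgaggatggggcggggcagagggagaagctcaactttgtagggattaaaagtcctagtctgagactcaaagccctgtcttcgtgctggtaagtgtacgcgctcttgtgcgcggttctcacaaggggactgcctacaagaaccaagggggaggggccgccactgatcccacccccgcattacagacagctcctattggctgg
Ndufa6: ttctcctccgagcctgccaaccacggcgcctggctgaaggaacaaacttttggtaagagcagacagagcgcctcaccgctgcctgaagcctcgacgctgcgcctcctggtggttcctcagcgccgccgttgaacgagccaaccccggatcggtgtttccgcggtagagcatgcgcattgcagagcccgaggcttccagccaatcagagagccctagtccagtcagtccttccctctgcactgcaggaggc
Cox7a1: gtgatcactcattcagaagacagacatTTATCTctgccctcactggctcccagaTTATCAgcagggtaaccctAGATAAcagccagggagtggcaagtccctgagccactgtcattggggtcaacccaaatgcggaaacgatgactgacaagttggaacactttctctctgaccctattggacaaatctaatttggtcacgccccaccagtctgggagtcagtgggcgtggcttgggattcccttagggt
Ndufab1: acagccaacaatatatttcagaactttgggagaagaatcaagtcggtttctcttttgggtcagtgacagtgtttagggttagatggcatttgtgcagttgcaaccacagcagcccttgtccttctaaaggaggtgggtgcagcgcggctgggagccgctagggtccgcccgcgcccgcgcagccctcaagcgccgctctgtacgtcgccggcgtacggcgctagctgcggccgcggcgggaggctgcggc
Uqcr11: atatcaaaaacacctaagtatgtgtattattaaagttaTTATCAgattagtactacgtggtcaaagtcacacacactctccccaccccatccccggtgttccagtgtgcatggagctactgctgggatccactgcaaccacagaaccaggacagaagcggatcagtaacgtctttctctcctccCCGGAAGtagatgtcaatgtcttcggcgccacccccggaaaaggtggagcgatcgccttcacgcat
Cycs: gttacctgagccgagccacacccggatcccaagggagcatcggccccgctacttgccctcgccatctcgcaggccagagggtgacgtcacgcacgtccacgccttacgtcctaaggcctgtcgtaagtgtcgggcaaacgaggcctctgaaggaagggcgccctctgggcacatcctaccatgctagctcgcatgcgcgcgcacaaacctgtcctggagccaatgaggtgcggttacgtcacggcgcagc
Cox6a1: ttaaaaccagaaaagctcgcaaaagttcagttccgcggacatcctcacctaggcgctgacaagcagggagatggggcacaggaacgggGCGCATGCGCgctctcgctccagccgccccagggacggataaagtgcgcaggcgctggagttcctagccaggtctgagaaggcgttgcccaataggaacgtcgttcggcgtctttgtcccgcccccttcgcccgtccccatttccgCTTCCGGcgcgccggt
Atp5g2: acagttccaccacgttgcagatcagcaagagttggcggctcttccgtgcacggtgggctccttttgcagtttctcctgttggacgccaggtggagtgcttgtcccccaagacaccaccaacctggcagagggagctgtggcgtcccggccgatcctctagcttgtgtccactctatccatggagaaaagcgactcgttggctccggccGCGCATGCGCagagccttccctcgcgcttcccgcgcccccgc
The window of Cox7a1, at chr7:30183921-30184170 on the plus strand, held AGATAA at positions −223 and −177 and TGATAA at −196, counted from the start, the first and the last of these words on the minus strand. Uqcr11, at chr10:80406822-80407071 on the minus strand, held TGATAA at −212 on the opposite strand and CCGGAAG at −66. Cox6a1 (chr5:115348959-115349208, minus strand) held the NRF1 word at −162 and the ETS word at −16. Atp5g2 (chr15:102671048-102671297, minus strand) held the NRF1 word at −42. None of the 5 words lay in the windows of Cox6b2 (chr7:4753095-4753344), Ndufa6 (chr15:82354292-82354541), Ndufab1 (chr7:122101849-122102098) and Cycs (chr6:50566570-50566819), all on the minus strand, which says nothing on whether the factors act there.

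Counted over windows of 250 bases before to 50 after the start, the NRF1 word was in 5 of 59 members with a window (8.47%), against 0.977% of 27025 genes. Those 27025 are all genes with a window, whether or not the array reads them, so they are not a set matched to the members. The ETS word was in 15 members (25.4% against 9.12%) and the YY1 word in 7 (11.9% against 2.88%). AGATAA was in 4 members (6.78% against 11.4%) and TGATAA in 6 (10.2% against 9.26%). The ETS word was in 3 of 11 members called higher at 30 h, 4 of 18 called lower and 8 of 30 not called, and the NRF1 word in 1, 2 and 2 of the same sets. A match is a string of letters, not a bound site.

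Complex I takes electrons from NADH, and its largest riser was Ndufa6, an accessory subunit of the arm that reaches into the matrix. Ndufa6 read 386, 357 and 402 at 0 h, 395, 368 and 442 after 3 h, 417, 454 and 475 after 7 h, 577, 560.4 and 807 after 14 h, 1207, 1139 and 975 after 21 h, and 1918, 1967 and 1874 after 30 h. Every array from 7 h on lay above all 3 arrays of 0 h, and the 30 h arrays lay above all others. The log2 change was 0.75 (adjusted p = 0.00056) at 14 h, 1.49 (adjusted p = 8.98e-08) at 21 h and 2.18 (SE 0.13, adjusted p = 2.48e-10) at 30 h, 4.55-fold. Ndufa6 was also called between neighbouring times, at 21 h against 14 h (0.74, adjusted p = 0.00511) and at 30 h against 21 h (0.70, adjusted p = 0.00316), in comparisons that called 2.32% and 4.98% of all probe sets, 0.942% and 1.87% of them higher.

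Ndufb10, an accessory subunit of the membrane arm, took another course. Its signal was 982, 765 and 763 at 0 h, 1159, 1200.0 and 1125 after 3 h, 1391, 1634 and 1494 after 7 h, 1369.8, 2166 and 1926 after 14 h, 1661, 2443 and 2424 after 21 h, and 2066, 2139 and 2006 after 30 h. All later arrays lay above the 3 untreated ones, and the 14 h and 21 h arrays of replicate A were the lowest of their times. Ndufb10 was 1 of the 2 members called at 7 h (0.88, SE 0.15, adjusted p = 0.00127), and by 14 h its change was 93.2% of that at 30 h (1.15, SE 0.15, adjusted p = 6.21e-06), against 34.4% for Ndufa6.

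Ndufa3, a small membrane subunit, read 968, 813 and 849 at 0 h, 894, 886 and 886 after 3 h, 894, 933 and 876 after 7 h, 976, 1005 and 1142 after 14 h, 1258, 1435 and 1458 after 21 h, and 1865, 2073 and 1909.9 after 30 h. The arrays up to 7 h overlapped, and those of 21 h and 30 h lay above all earlier ones. Its change was 0.05 at 7 h and 0.99 (SE 0.10, adjusted p = 2.3e-07) at 30 h, and it was called for the first time at 21 h. Both Ndufa10 and Ndufa7 passed the test at 30 h with less margin.

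Ndufa10 averaged 163 ± 2.0 at 30 h and 82.7 ± 13.9 at 0 h (SD, n = 3 each; log2 change 0.97, SE 0.33, adjusted p = 0.0373 in limma). Leaving out any of its 6 arrays ended that call (log2 changes 0.89 to 1.06, adjusted p 0.0512 to 0.112). Ndufa7, one of the brightest members, averaged 4959 ± 750.1 at 30 h and 3148 ± 454 at 0 h (log2 change 0.47, SE 0.16, adjusted p = 0.0324), and its call was lost without any of 4 arrays (0.33 to 0.50). The 30 h arrays of Ndufa10 lay close together, and those of Ndufa7 spread widely.

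Among the falling members of complex I, Ndufab1 changed most. It is the mitochondrial acyl carrier protein, which also serves lipoate and iron-sulfur cluster synthesis. Ndufab1 read 1574, 1404 and 1369.6 at 0 h, 1554, 1314 and 1791 after 3 h, 1234, 1119 and 1553 after 7 h, 316, 901 and 941 after 14 h, 331, 386 and 817 after 21 h, and 377, 397 and 258 after 30 h. The first 3 times overlapped, array 14 h A lay well below the other 14 h arrays, and every 30 h array lay below every array of 0, 3 and 7 h. The change was −1.22 (SE 0.32, adjusted p = 0.0146) at 14 h and −2.06 (SE 0.32, adjusted p = 5.1e-05) at 30 h. A probe set shared by Ndufab1 and its pseudogene Ndufab1-ps, not counted as a member, read 219 ± 7.64 at 30 h and 678 ± 43.7 at 0 h (−1.50, adjusted p = 1.61e-06).

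Ndufb5, of the membrane arm, fell in small steps. Its signals were 2907, 2808 and 3008 at 0 h, 2899, 2899 and 3209 after 3 h, 2510.1, 2849 and 3256 after 7 h, 2109, 2558 and 2660.0 after 14 h, 1972, 2161 and 1858 after 21 h, and 1492, 1589 and 1433 after 30 h. The replicates were tight, the 21 h arrays lay below all of 0, 3 and 7 h, and the 30 h arrays were the lowest of all. The change was −0.33 (adjusted p = 0.0488) at 14 h, −0.71 at 21 h and −1.15 (SE 0.11, adjusted p = 8.28e-08) at 30 h. Ndufa5, of the matrix arm, read 778, 1003 and 914 at 0 h, 886, 969.8 and 1057 after 3 h, 718, 718 and 752 after 7 h, 488, 757 and 846 after 14 h, 461, 758 and 723 after 21 h, and 428, 553 and 558 after 30 h. The 30 h arrays lay below those of 0, 3 and 7 h (−0.78, SE 0.18, adjusted p = 0.00242), and array A was the lowest from 14 h on.

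The 4 core subunits with a probe set, Ndufv1, Ndufv2, Ndufs1 and Ndufs3, gave 0 higher and 3 lower at 30 h, with a median log2 change of −0.49, and the 25 accessory subunits gave 5 higher and 7 lower (median 0.12). Beside them stand 12.8% of all probe sets called higher and 13.8% lower, and 70.5% of bright probe sets called in either direction. This split by role was made after the values were seen, and the difference between the roles was not tested. Ndufv1, which binds NADH and the flavin, had 1679.8, 1755 and 1919 at 30 h, against 2176, 2844 and 2721 at 0 h. It did not move until late, with a change of −0.18 (adjusted p = 0.368) at 21 h and −0.74 (SE 0.12, adjusted p = 0.000111) at 30 h, and 30 h against 21 h was itself called (−0.55, adjusted p = 0.0116). Ndufs3 averaged 745 ± 98.3 at 30 h and 1024 ± 150 at 0 h (−0.51, adjusted p = 0.0127), a call that ended without array 0 h A (−0.38), 30 h B (−0.45) or 30 h C (−0.46). Ndufv2 changed by −0.47 (adjusted p = 0.0430) and lost its call in 10 of the 18 fits that leave out 1 array (−0.34 to −0.52). Ndufs1, which carries several of the clusters, read 674 ± 70.2 at 30 h and 791 ± 94.0 at 0 h and was not called (−0.23, adjusted p = 0.344). Median scaling in place of quantile normalization ended the calls of Ndufv1 (−0.51, adjusted p = 0.0659), Ndufs3 and Ndufv2.

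Of the remaining falls in complex I, Ndufb6 changed by −0.67, Ndufa9 by −0.60, Ndufa8 by −0.59 and Ndufa13, also known as a cell death regulator, by −0.40. The calls of Ndufa8 and Ndufa13 were lost in 4 and 7 of the fits that leave out 1 array (−0.45 to −0.56 and −0.29 to −0.44). Median scaling ended those of Ndufb6 (−0.50) and Ndufa9 (−0.56).

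The assembly factors Ndufaf4 and Ndufaf1, which help build complex I, were not called. Ndufaf4 read 70.8, 56.5 and 56.8 at 0 h, 67.9, 60.1 and 64.2 after 3 h, 43.6, 72.2 and 40.8 after 7 h, 26.7, 54.5 and 36.4 after 14 h, 34.6, 30.1 and 25.7 after 21 h, and 35.6, 32.9 and 31.7 after 30 h. The change of Ndufaf4 at 30 h was −0.63 (SE 0.26, adjusted p = 0.0805) and that of Ndufaf1 was −0.28. The Ndufaf4 arrays of 30 h lay below those of 0 h, and its adjusted p was 0.0456 with the dimmest 33.3% of probe sets left out and 0.0366 without the intensity trend.

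Complex II, succinate dehydrogenase, is the one complex whose 4 members were all called at 30 h, and they parted. Sdhd, a membrane anchor, read 1623, 1531 and 1558 at 0 h, 1818, 2021 and 1972 after 3 h, 1686, 2705 and 2148 after 7 h, 2112, 2173 and 2512 after 14 h, 3074, 3017 and 3450.3 after 21 h, and 3108, 2908 and 2524 after 30 h. All 15 treated arrays lay above the untreated ones. The change was 0.47 (adjusted p = 0.0133) at 14 h, 0.83 at 21 h and 0.66 (SE 0.12, adjusted p = 0.000325) at 30 h.

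Its partner in the membrane went the other way. Sdhc read 1256, 1106 and 1267 at 0 h, 1072, 1062 and 1048 after 3 h, 1247, 1066 and 904 after 7 h, 935, 1095 and 969 after 14 h, 739.9, 855 and 1097 after 21 h, and 601, 712 and 699 after 30 h. The 30 h arrays were the lowest of all 18, and the change at 30 h was −0.90 (SE 0.14, adjusted p = 4.87e-05). Sdhb, the iron-sulfur subunit, read 873, 824 and 749 at 0 h, 849.5, 994 and 707 after 3 h, 613, 871 and 877 after 7 h, 544, 731 and 751 after 14 h, 466, 652 and 522 after 21 h, and 379, 406 and 358 after 30 h. Every 30 h array lay below every other array (−1.02, SE 0.16, adjusted p = 6.61e-05), and the gene was first called at 21 h (−0.59, adjusted p = 0.0131).

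Sdha, the flavin subunit that oxidises succinate, was dim. Sdha read 118, 106 and 111 at 0 h, 124, 117 and 119 after 3 h, 113, 100.2 and 89.5 after 7 h, 70.3, 119 and 81.5 after 14 h, 79.0, 72.7 and 81.7 after 21 h, and 49.9, 58.9 and 48.7 after 30 h. Only the 30 h arrays lay below all others, and it was called at 30 h alone (−0.86, SE 0.20, adjusted p = 0.00273). The signals of Sdhb, Sdhc and Sdha at 30 h averaged 381 ± 24.2, 671 ± 60.9 and 52.5 ± 5.57, against 815 ± 62.1, 1210 ± 89.6 and 112 ± 5.83 at 0 h (SD, n = 3 each). Levels of different genes are not compared here, since probe sets differ in how they bind.

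Complex III passes electrons from quinone to cytochrome c. The core was counted as Cyc1 and the core proteins Uqcrc1 and Uqcrc2, so it is not a set of catalytic subunits alone. All 3 were lower at 30 h (median −0.73), and the 5 accessory subunits gave 2 higher and 1 lower (median 0.15). Beside them stand 12.8% of all probe sets called higher and 13.8% lower, and 70.5% of bright ones called in either direction. This too is a split made after the values were seen, and the difference was not tested. Cyc1, which is cytochrome c1, read 3394, 3339 and 3118 at 0 h, 3305, 3427 and 3981 after 3 h, 2405, 3917 and 3603 after 7 h, 2176, 3120.0 and 3058 after 14 h, 1582, 2145 and 2423 after 21 h, and 1429.5, 1431 and 1329 after 30 h. The arrays of 0, 3 and 7 h overlapped, and the 3 arrays of 30 h lay close together and below all others. The change was −0.90 at 21 h and −1.46 (SE 0.15, adjusted p = 2.66e-07) at 30 h, and the step at 30 h against 21 h was called (−0.57, adjusted p = 0.0316). A second Cyc1 probe set, of a kind that breaks a design rule, moved the other way without a call (1237 at 30 h and 896 at 0 h, 0.36, adjusted p = 0.132).

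Uqcrc1, a core protein, had 1415, 1606 and 1372 at 30 h, against 1885, 2300.0 and 2238 at 0 h, without overlap (−0.73, SE 0.12, adjusted p = 6.12e-05; −0.53 and adjusted p = 0.0647 under median scaling). Uqcrc2, the other core protein, spread more, with 1281, 841 and 937 at 30 h, against 1373, 1624 and 1354 at 0 h. Its call (−0.65, adjusted p = 0.0385) was lost in 5 of the fits that leave out 1 array (−0.52 to −0.71), each an array of 0 h or 30 h. The limma call was also lost without quantile normalization (−0.52, adjusted p = 0.121), with median scaling (−0.51, adjusted p = 0.19) and without the intensity trend (adjusted p = 0.066).

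The small subunits of complex III split. Uqcrh, the hinge protein that touches cytochrome c1, read 1709, 1184 and 1226 at 0 h, 1520.3, 1612 and 1492 after 3 h, 1559, 1878 and 1624 after 7 h, 1909.7, 2094 and 2033 after 14 h, 2483, 2461 and 2312 after 21 h, and 3149.8, 3071 and 2654 after 30 h. The arrays of 14 h and later lay above all of 0, 3 and 7 h, and the change reached 0.96 (SE 0.13, adjusted p = 7.42e-06) at 30 h.

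Uqcrq, a small accessory subunit, read 2808, 2975 and 2017 at 0 h, 3278, 3497 and 3260.2 after 3 h, 2955, 4081 and 3592 after 7 h, 2972, 3689.9 and 4012 after 14 h, 3373, 4407 and 4375 after 21 h, and 4387, 4314 and 4544 after 30 h. All arrays of 3 h lay above those of 0 h, as did those of 30 h, where the change was 0.57 (SE 0.14, adjusted p = 0.00375). Uqcr11, the smallest subunit, read 1652, 1533 and 1188 at 0 h, 1627, 1737 and 1876 after 3 h, 1097, 1704 and 1279 after 7 h, 538, 1029 and 1127 after 14 h, 568, 942 and 870.3 after 21 h, and 522, 725 and 629.7 after 30 h. Its 21 h and 30 h arrays lay below all of 0, 3 and 7 h, array A was the lowest at 14, 21 and 30 h, and the change at 30 h was −1.26 (SE 0.23, adjusted p = 0.000205). Uqcrb and Uqcr10 were not called (0.15 and −0.41).

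Cycs is the mobile electron carrier cytochrome c, which also triggers caspase activation when it leaves the mitochondrion. Its signals were 93.1, 102 and 124 at 0 h, 102, 125 and 101 after 3 h, 92.7, 65.4 and 70.5 after 7 h, 52.6, 65.8 and 75.1 after 14 h, 43.4, 46.4 and 57.5 after 21 h, and 45.4, 39.5 and 28.4 after 30 h. From 7 h on all arrays lay below those of 0 h and 3 h, and those of 30 h did not overlap with any up to 14 h. The change was −0.84 (adjusted p = 0.0131) at 21 h and −1.16 (SE 0.24, adjusted p = 0.00077) at 30 h.

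**Figure D3:**
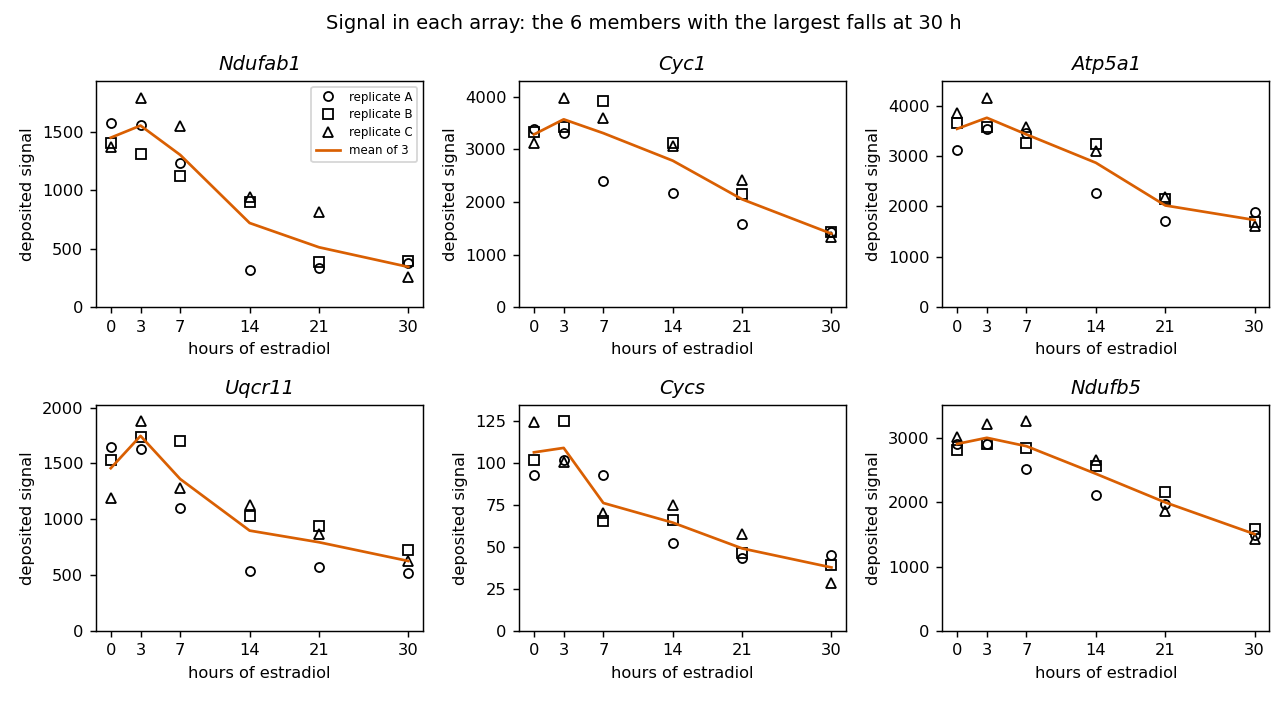
Deposited signal in each array against hours of estradiol for the 6 members with the largest falls at 30 h (symbols are replicates A, B and C, the line is the mean of 3). Most of each fall lies between 7 h and 30 h, and replicate A is the lowest 14 h array in each.

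Complex IV, cytochrome c oxidase, held the largest rise of all members. Cox6b2, the form of subunit VIb best known from testis, read 369.6, 234 and 267 at 0 h, 284, 287 and 314 after 3 h, 377, 469.6 and 329.5 after 7 h, 956, 968 and 797 after 14 h, 1127, 1154 and 1007 after 21 h, and 2431, 2839 and 1598 after 30 h. The 14 h and 21 h arrays lay above all earlier ones and the 30 h arrays above all others, with replicate C the lowest at 30 h. The change was 1.64 (SE 0.19, adjusted p = 6.41e-06) at 14 h and 2.82 (SE 0.19, adjusted p = 1.22e-09) at 30 h, 7.08-fold. The steps at 14 h against 7 h (1.21, adjusted p = 0.00141, where 2.33% of all probe sets were called, 1.26% higher) and at 30 h against 21 h (0.94, adjusted p = 0.00578) were called too, and Cox6b2 was the only member called at 14 h against 7 h.

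All 3 probe sets of Cox6b2 are of a kind that may read related transcripts or that breaks a design rule, so the gene is uncertain. Cox6b1, the form of the same subunit used in most tissues, read 79.1, 94.4 and 112 at 0 h, 82.3, 72.2 and 92.6 after 3 h, 84.1, 73.2 and 87.4 after 7 h, 123, 63.0 and 94.1 after 14 h, 86.2, 119 and 75.3 after 21 h, and 94.1, 107 and 98.8 after 30 h. Its groups overlapped and it was not called (0.16, SE 0.22, adjusted p = 0.682). The probe set that reads Cox6b1 is of an uncertain kind too.

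Cox7a1, the heart and skeletal muscle form of subunit VIIa, was the other member called at 7 h. It read 71.0, 36.2 and 26.6 at 0 h, 50, 68.0 and 54.8 after 3 h, 112, 72.6 and 105 after 7 h, 169, 127 and 102 after 14 h, 219, 127 and 127 after 21 h, and 195, 149 and 197 after 30 h. All arrays from 7 h on lay above those of 0 h, and array A was the highest at 0, 7, 14 and 21 h. The change was 0.92 (SE 0.25, adjusted p = 0.0440) at 7 h and 1.82 (SE 0.25, adjusted p = 1.12e-05) at 30 h. Its highest array read 219.

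Cox7a2, the form of the same subunit used in most tissues, read 2412, 2340.2 and 2000.4 at 0 h, 2139, 2563 and 2391 after 3 h, 2136, 2752 and 2541 after 7 h, 1644, 2433 and 2668 after 14 h, 1816, 2409 and 2509 after 21 h, and 1723, 1913 and 2153 after 30 h. The arrays of 30 h overlapped those of 0 h, and the call (−0.44, SE 0.15, adjusted p = 0.0418) was lost in 6 of the fits that leave out 1 array (−0.36 to −0.44) and without quantile normalization (−0.22, adjusted p = 0.420). Cox7a2l, which joins complexes into supercomplexes, read 630.3, 643 and 743 at 0 h, 630.2, 737 and 619.7 after 3 h, 501, 686 and 656 after 7 h, 692, 715 and 777 after 14 h, 893, 839 and 826 after 21 h, and 778, 833 and 707 after 30 h. It was not called, with a change of 0.19 (SE 0.13, adjusted p = 0.319).

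Cox6a1, the form of subunit VIa used in most tissues, was among the brightest members, and its probe set is of an uncertain kind. It read 2694, 3199.9 and 2963 at 0 h, 3379.9, 3703 and 3416 after 3 h, 3061, 4604 and 4583 after 7 h, 3950.2, 5623 and 4463 after 14 h, 5672, 6255 and 6549.6 after 21 h, and 7161, 6564 and 8088 after 30 h. The arrays of 21 h and 30 h lay above all earlier ones, and the change was 0.57 (adjusted p = 0.0149) at 14 h and 1.11 (SE 0.15, adjusted p = 1.12e-05) at 30 h. The muscle form Cox6a2 read 9.2, 13.8 and 8.3 at 0 h, 11.3, 11.4 and 8.2 after 3 h, 15.3, 15.2 and 9.3 after 7 h, 17.6, 7.5 and 15.6 after 14 h, 22.6, 14.1 and 18.3 after 21 h, and 12.6, 6.5 and 10.3 after 30 h. These signals were at the dim end of the array, overlapped between 30 h and 0 h and gave no call (−0.07, SE 0.17, adjusted p = 0.839).

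Cox5b, which binds zinc, averaged 3826 ± 256 at 30 h and 2556 ± 271 at 0 h (log2 change 0.37, SE 0.14, adjusted p = 0.0491), and its call was lost in 12 of the 18 fits that leave out 1 array (0.30 to 0.42).

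Cox6c, a small membrane subunit, read 2092, 1249.7 and 1559.9 at 0 h, 1799, 1585 and 1825 after 3 h, 1605, 1146 and 1553 after 7 h, 844, 1490.1 and 1034 after 14 h, 852, 907 and 959.9 after 21 h, and 879, 630.1 and 749.8 after 30 h. All arrays of 21 h and 30 h lay below those of 0, 3 and 7 h (−1.14, SE 0.20, adjusted p = 0.00022 at 30 h). Cox8c, the form of subunit VIII known from testis, had 408, 429 and 609 at 30 h, against 289.6, 288 and 327 at 0 h (0.70, SE 0.17, adjusted p = 0.00287), with replicate C the highest.

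The muscle form Cox8b read 151, 148 and 147 at 0 h, 150.4, 155 and 127 after 3 h, 133, 137 and 123 after 7 h, 195, 143 and 127 after 14 h, 157, 151 and 147 after 21 h, and 159.6, 158 and 157 after 30 h. The common form Cox8a read 12, 3.8 and 12.5 at 0 h, 27.9, 2.7 and 1.7 after 3 h, 6.5, 14.4 and 10.6 after 7 h, 40.4, 5.8 and 15.2 after 14 h, 24.5, 10.8 and 6.1 after 21 h, and 19.5, 18.4 and 24.2 after 30 h. Neither was called (0.19, adjusted p = 0.442 for Cox8b and 0.53, adjusted p = 0.286 for Cox8a), although their arrays of 30 h lay above those of 0 h.

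Of the 5 tissue forms, 3 were higher and 0 lower at 30 h (median 0.70), and of the 10 other subunits 2 were higher and 2 lower (median 0.09), beside 12.8% and 13.8% of all probe sets. The split was made after the values were seen. Of the 3 calls, that of Cox6b2 rests on uncertain probe sets and that of Cox8c was lost with the mean over the gene's probe sets (0.23, adjusted p = 0.335). The muscle forms Cox6a2 and Cox8b did not share the rise of Cox7a1 in the test, and the difference between forms was not tested.

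Cox4i1, often used as a loading control for mitochondria, read 149, 92.5 and 142 at 0 h, 164, 106 and 119.9 after 3 h, 119, 139 and 110.1 after 7 h, 170.2, 64.2 and 186 after 14 h, 98.0, 105 and 156 after 21 h, and 171, 70.8 and 130 after 30 h. Its log2 change was 0.02 (SE 0.32, adjusted p = 0.98), its arrays of one time spread more than its means moved, and a second probe set gave 0.03.

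**Figure D4:**
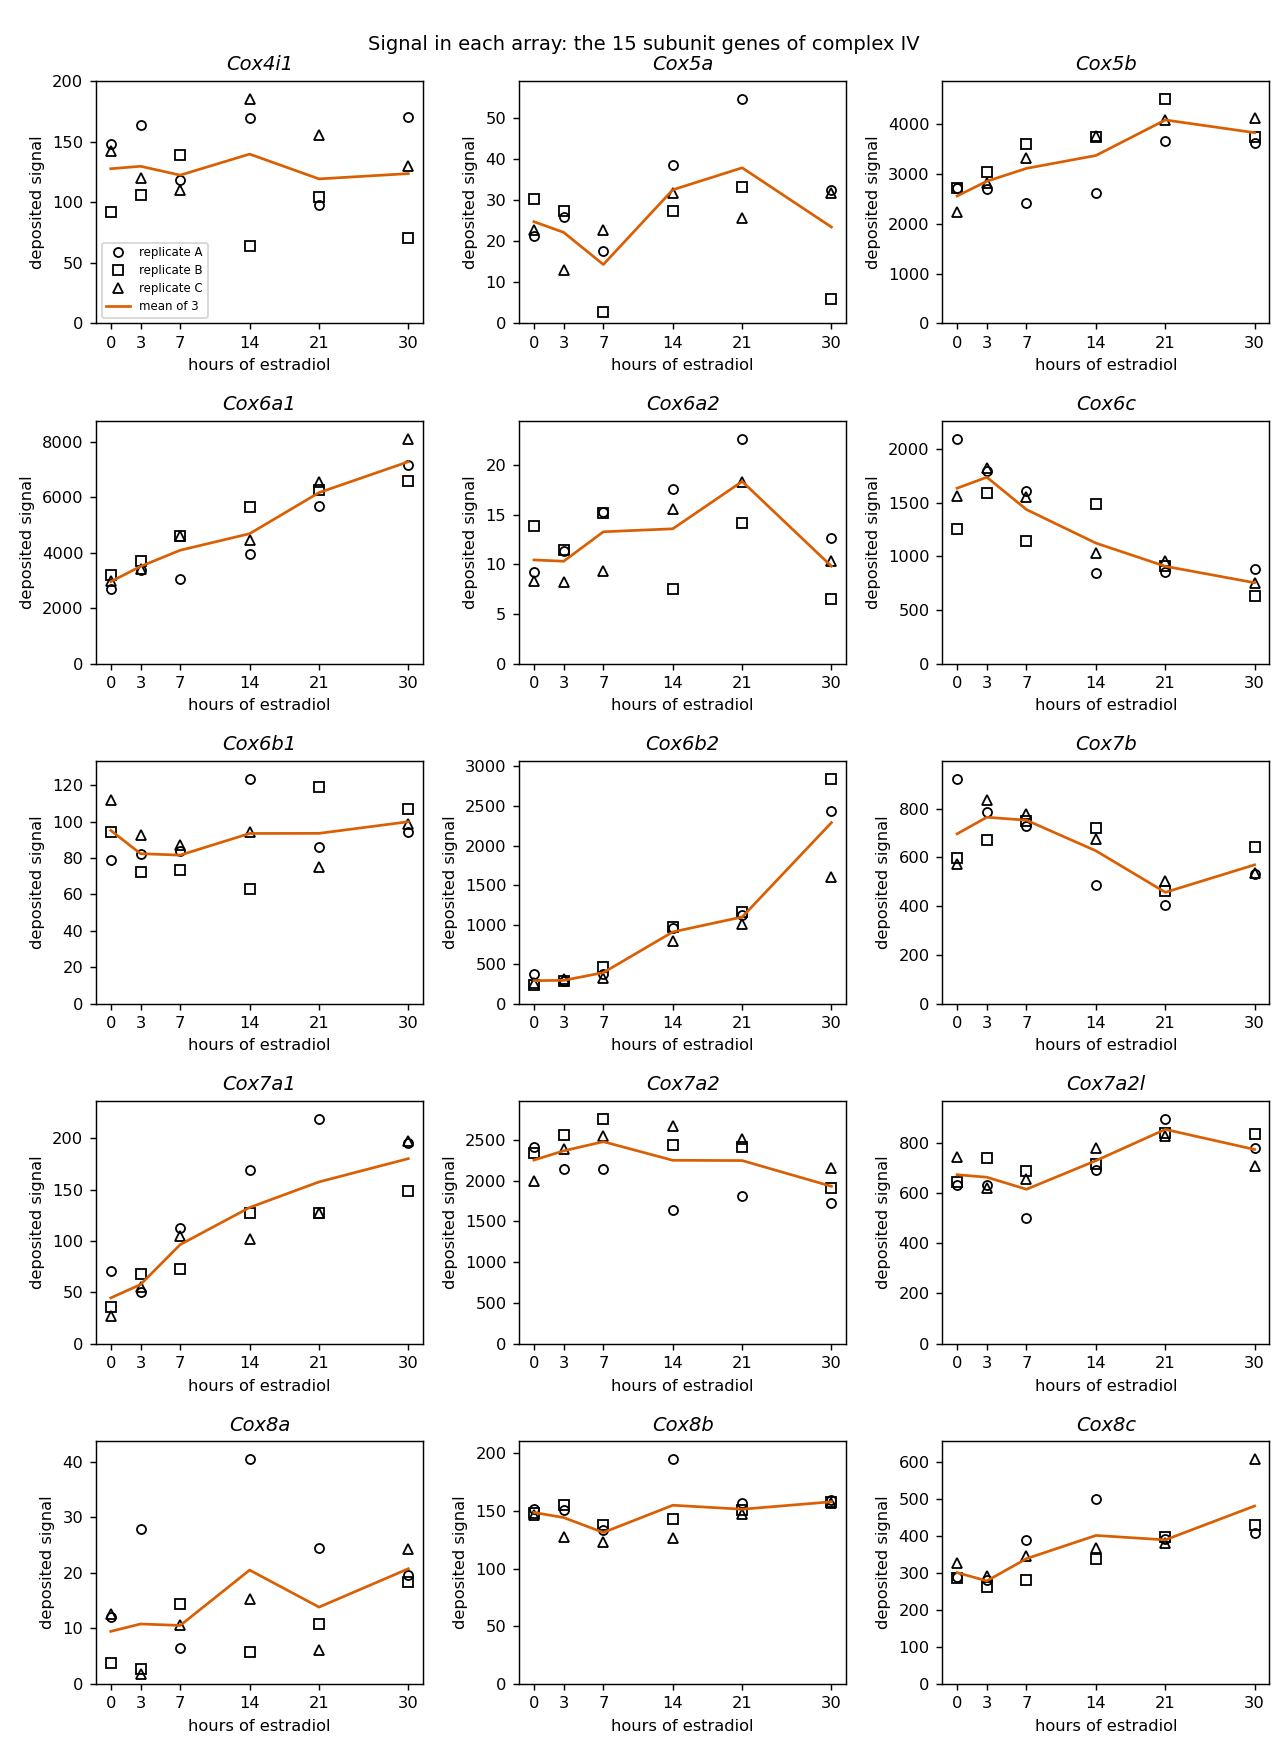
Deposited signal in each array against hours of estradiol for the 15 complex IV members (symbols are replicates A, B and C, the line is the mean of 3; each panel has its own scale from 0). Cox6b2, Cox7a1 and Cox6a1 rise and Cox6c falls, while Cox4i1, Cox6b1 and Cox8b were not called at any time.

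ATP synthase had the fewest calls among the 4 large groups, 3 of 14, or 21.4% against 26.7% of all probe sets. Its head turns the proton flow into ATP, and 2 of the 4 head subunits among the members, which are not the whole head, were lower. Atp5a1, the alpha subunit, read 3109.9, 3648 and 3859 at 0 h, 3545, 3576 and 4156 after 3 h, 3449.9, 3253 and 3581 after 7 h, 2264, 3241 and 3089.8 after 14 h, 1717, 2143 and 2193 after 21 h, and 1879, 1695 and 1614 after 30 h. The arrays of 0, 3 and 7 h overlapped, and those of 21 h and 30 h lay below all of them. The change was −0.44 (adjusted p = 0.0331) at 14 h and −1.28 (SE 0.13, adjusted p = 3.27e-07) at 30 h, and 79.4% of it was reached by 21 h. Atp5a1 was the only member called lower at 21 h against 14 h (−0.58, adjusted p = 0.0246), where 1.38% of all probe sets were lower.

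Atp5c1, the gamma subunit that turns inside the head, read 1998, 1736 and 1823 at 0 h, 2040.2, 2062 and 2143 after 3 h, 1549.5, 1809 and 2067 after 7 h, 1149, 1859.6 and 1523 after 14 h, 1138, 1313 and 1121 after 21 h, and 1138, 954 and 788 after 30 h. Every 30 h array lay below every array of 0, 3 and 7 h (−1.08, SE 0.14, adjusted p = 6.15e-06). A second Atp5c1 probe set gave −0.87 (711 at 30 h and 1260.0 at 0 h), and another, shared with the pseudogene Atp5c1-ps, gave −0.84. The other head subunits among the members, Atp5d (−0.27, adjusted p = 0.360) and Atp5e (0.49, adjusted p = 0.170), were not called.

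Atp5g2, a gene for the c subunit of the membrane ring, read 456, 518 and 450.1 at 0 h, 538, 533 and 621 after 3 h, 459.9, 475 and 550.4 after 7 h, 439, 433 and 464 after 14 h, 364, 302 and 296 after 21 h, and 247, 241 and 246 after 30 h. The arrays of 30 h lay close together and below all others (−0.82, SE 0.12, adjusted p = 2.41e-05). Atp5g1, another gene for the same protein, read 80.3, 67.1 and 78.0 at 0 h, 44.4, 69.6 and 60.2 after 3 h, 69.7, 79.7 and 52.9 after 7 h, 80.6, 55.0 and 55.6 after 14 h, 139, 54.6 and 56.0 after 21 h, and 50.6, 70.9 and 95.2 after 30 h. Its arrays of 30 h and 0 h overlapped (−0.02, SE 0.27, adjusted p = 0.979). None of the 8 members of the stalks and the membrane part was called at any time, with a median log2 change of 0.01 at 30 h.

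**Figure D5:**
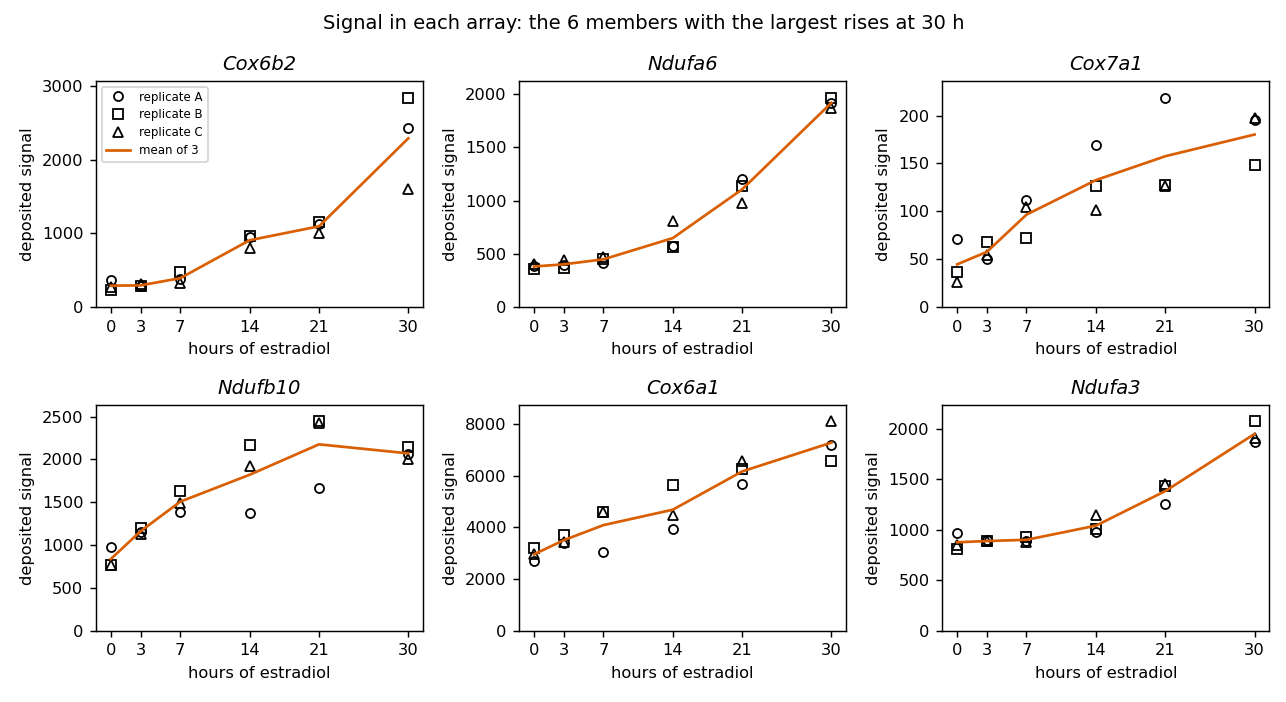
Deposited signal in each array against hours of estradiol for the 6 members with the largest rises at 30 h (symbols are replicates A, B and C, the line is the mean of 3). Ndufb10 and Cox7a1 lie above their untreated arrays by 7 h, Cox6b2 climbs from 14 h, and Ndufa6 and Ndufa3 climb most at 21 h and 30 h.

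In neighbouring times, limma called no member at 7 h against 3 h (1.06% of all probe sets), and 5 members had an unadjusted p below 0.05. At 30 h against 21 h 3 were higher (Cox6b2, Ndufa6 and Ndufa3) and 5 lower (Cyc1, Ndufv1, Ndufb5, Uqcrc1 and Ndufa9), beside 1.87% and 3.12% of all probe sets. Array 14 h A was the lowest of the 3 arrays of 14 h for 22 of the 23 members that were lower at 30 h, and for 9 of the 13 that were higher. The median deviation of the 23 from their 0 h means was −0.55 in 14 h A, −0.18 in 14 h B and −0.26 in 14 h C. Array A was also the lowest at 21 h, with −0.61 in 21 h A, −0.43 in 21 h B and −0.38 in 21 h C. The cause was not tested, and the 13 calls at 14 h became 8 to 14 when single arrays were left out, 8 of them without 0 h A. At 30 h the same medians were −0.84, −0.83 and −0.81 for the members that were lower and 0.98, 0.99 and 1.01 for those that were higher.

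Deposited values and quantile normalization differed for bright genes. Normalization made the 30 h change of 41 of the 48 bright members lower, by a median of −0.14 on the log2 scale, and that of the other 25 members higher by a median of 0.07. Without it the calls at 30 h were 13 higher and 20 lower, and with median scaling 11 were higher and 15 lower, so that 39.4% and 42.3% of the calls were higher, against 36.1% after normalization.

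Probe sets beyond the one used gave further values. Of the 28 extra probe sets, in 21 genes, 17 had mean signals under 50 at every time and 3 were called at 30 h, 1 each of Atp5c1, Cox6b2 and Ndufb2. That of Ndufb2, of an uncertain kind, gave −0.59 (823 at 30 h and 1198 at 0 h, adjusted p = 0.00921) where the one used gave 0.12 (adjusted p = 0.717), so the probe sets of Ndufb2 disagree. Of the members, 18 were read by an uncertain kind of probe set, and 10 of those were called at 30 h. Those 10 were Atp5c1, Atp5g2, Cox6a1, Cox6b2, Cox6c, Ndufa3, Ndufa5, Ndufb5, Sdhb and Uqcrc2. Cox7c, left out because its probe sets also carry a second symbol, read 4809 ± 54.9 at 30 h and 7482 ± 1462 at 0 h with one probe set (−0.73, adjusted p = 0.0013) and gave −0.86 with the other.

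Genes that work beside the chain were read from lists chosen with earlier results of these data known. Each count below stands beside the 26.7% of all probe sets called at 30 h, 12.8% higher and 13.8% lower, and no list was tested against it. Of 15 measured assembly factors outside the members, 1 was higher and 4 lower at 30 h (median −0.33), a share near that of all probe sets. Sdhaf2, which attaches the flavin to Sdha, averaged 384 at 30 h and 117 at 0 h (log2 change 1.67, SE 0.17, adjusted p = 1.84e-07), and Cox18, which inserts a complex IV subunit into the membrane, averaged 453 and 1061 at the same times (−1.21), and Lrpprc (−0.98) and Coa3 (−0.69) were lower too. Of 11 genes of electron entry and quinone synthesis 2 were higher and 4 lower (median −0.45). Etfdh, which feeds electrons from fatty acid oxidation into quinone, changed by 1.33 and Etfb by 0.42. Coq7, an enzyme of quinone synthesis, changed by −1.71, Gpd2, a glycerol phosphate dehydrogenase that also feeds quinone, by −1.56 and Coq5 by −0.91.

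Of 12 genes for ATP and phosphate exchange 1 was higher and 3 lower (median 0.23), again a share near the 26.7% of all probe sets. Atpif1, the inhibitor of ATP synthase that zebrafish and mouse cells need for heme synthesis, averaged 8279 at 30 h and 3007 at 0 h (log2 change 1.34, SE 0.14, adjusted p = 3.91e-07). Slc25a4, a carrier that trades ADP for ATP, averaged 312 and 1069 at the same times (−1.76), and Slc25a5, of the same family, changed by −0.91 and the outer membrane channel Vdac2 by −1.41. Of 15 regulators of mitochondrial gene expression and biogenesis 1 was higher, the nuclear receptor Esrra (0.61), and 7 lower (median −0.41). The lower ones included Pprc1, a coactivator (−2.33), Ssbp1, which binds mitochondrial DNA (−2.02), and Tfb2m, a mitochondrial transcription factor (−1.75). Of 9 genes of iron-sulfur cluster assembly 2 were higher, Isca1 (1.22) and Isca2 (0.67), and 2 lower, the chaperone Hspa9 (−2.72, 405 at 30 h and 2665 at 0 h) and Fdx1 (−1.60). Subunits encoded in mitochondrial DNA are not analysed here.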

How the data were processed

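The deposited values were signal intensities, 1 for each of 12488 probe sets and 18 arrays on a linear scale. How probes were summarised and scaled is not given in the sources used here. All arrays shared a 2% trimmed mean of 150.094 to 150.124 as deposited. The 66 control probe sets were left out. Symbols came from GEO's platform table, in which 10833 probe sets carry 1 symbol, 396 several and 1193 none, and all 73 member symbols were found unchanged in the RefSeq gene table.

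A constant of 16 was added, the log2 taken and the arrays quantile normalized. The limma model (version 3.58.1, R 4.3.3) had 1 mean for each time, 12 residual degrees of freedom and eBayes with an intensity trend. Times were compared with 0 h and with the time before, and p values were adjusted by Benjamini-Hochberg over 12422 probe sets. The test was checked on simulated data. Tables and figures were made with Python 3.11.15, pandas 2.3.3 and matplotlib 3.10.9. Members were named by rule: up to 3 called rises and 3 called falls of each complex at 30 h, Sdha to Sdhd, members called early, tissue forms and paralogs, and from each gene list up to 3 called genes in each direction. Members and gene lists were chosen with earlier results of these data known. Alternatives are listed with the closing values.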

Additional observations from a re-analysis of the deposited data

Results flagged for a closer look

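A probe set of Cox6b2 that did not stand for the gene also rose, and it is counted above among the 3 extra probe sets called at 30 h. This probe set, of a kind that breaks a design rule, read 539, 606 and 456 at 30 h, against 125, 58.8 and 85.6 at 0 h, and its log2 change was 2.47 (SE 0.22, adjusted p = 5.3e-08 in limma), against 2.82 for the probe set used. The third probe set of Cox6b2 averaged 16.3 at 30 h and 16.9 at 0 h and gave −0.05 (adjusted p = 0.938).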

How the results depend on the processing

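None of the 36 members called at 30 h changed direction under the 11 other settings, 20 lost their call in none of them and 27 in no fit without 1 array. Of the 11, leaving uncertain probe sets out refits nothing, so it could not change a call or a direction. It only drops 18 members, 10 of them called at 30 h, and a dropped member does not count here as losing its call. The number of members called at 7 h was 1 without quantile normalization, with median scaling, a constant of 64, the compared times alone or the average of a gene's probe sets. At 14 h it was 5 with median scaling and 7 with the compared times alone. At 21 h it was 15 among the members that remain with uncertain probe sets left out, against 24 among all 73. At 14 h against 7 h it was 2 with the dimmest 33.3% left out, array weights or the mean over probe sets. It was 0 with uncertain probe sets left out, which drops Cox6b2. At 21 h against 14 h it was 1 with median scaling or no intensity trend, and 0 with the compared times alone. At 30 h against 21 h it was 5 without quantile normalization, 2 with median scaling, 3 without the trend and 2 with the compared times alone. It was also 5 with uncertain probe sets left out, which drops Cox6b2, Ndufa3 and Ndufb5. The median log2 change at 30 h of all members was 0.0073 without quantile normalization and 0.0189 with median scaling, and that of complex IV 0.079 and 0.0895. For ATP synthase it was 0.0002, 0.0115, −0.0419 (mean over probe sets) and 0.0068 (uncertain probe sets left out), for complex II −0.71 (constant of 64) and for complex I −0.0335 (mean over probe sets). The cause was not tested.

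Without single arrays the counts were 1 to 3 at 7 h, 8 to 14 at 14 h, 20 to 27 at 21 h, 28 to 36 at 30 h, 1 to 2 at 14 h against 7 h, 1 to 4 at 21 h against 14 h, 3 to 8 at 30 h against 21 h and 27 to 36 in the F test. The medians at 30 h were −0.10 to 0.0149 for all members, −0.0288 to 0.11 for complex I, −0.58 to −0.39 for its assembly factors, −0.96 to −0.82 for complex II, −0.71 to −0.52 for complex III, 0.16 to 0.26 for complex IV and −0.18 to −0.0651 for ATP synthase. Uncalled members changed sign, namely Cox4i1 (−0.0862, −0.0805 and −0.019 without quantile normalization, with median scaling and with array weights; −0.22 to 0.30 without single arrays), Atp5g1 (0.0094 with array weights, 0.0687 with the mean over probe sets; −0.18 to 0.20) and Cox6a2 (−0.13 to 0.0267). The mean over all probe sets ended the calls of Cox6c (−0.22), Cox8c (0.23), Ndufb10 (0.36), Atp5g2 (−0.51) and Ndufv2 (−0.03). The extra probe sets of these genes, except Ndufv2, had mean signals under 50 at every time.

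The main fit did not pair arrays by the letters A, B and C, although same-letter arrays resembled each other somewhat more than other arrays did. Deviations of same-letter arrays correlated above 0.1 in 3 of 45 pairs (median 0.03), against 0 of 90 pairs of other letters (median −0.01), and 13 of 18 arrays correlated best with their own letter. With the replicate block 3 members were called at 14 h against 7 h, and Ndufv2 was no longer called at 30 h (−0.47, adjusted p = 0.0501).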
